A study of Mus musculus with 6 samples.

Results

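The comparison described here is that of heme-treated with vehicle-treated mouse bone marrow cultures 72 h after treatment, the latest time of the series, on 1 array a side. The value of a gene is its log2 level on the heme array minus that on the vehicle array. Each gene was represented by the probe set with the highest mean over the 6 arrays among those naming it alone. Genes were kept where their highest value over the 6 arrays reached the median of the whole table, 5.37 on the log2 scale, which gave 11516 genes of 19938 named. Marrow of Spic(igfp/igfp) mice was grown in 10% fetal calf serum and 20 ng/ml of GM-CSF, which drives marrow cells to macrophages and dendritic cells. After 6 days each culture received heme at 80 µM (the labels type the unit as µm) or its vehicle, 0.15 M NaCl with 10% NH4OH. Adherent cells were collected 6, 24 or 72 h later, with 1 array for each treatment at each time. Heme and vehicle cultures alike carried the igfp alleles, and the labels do not describe what those alleles carry.

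Heme is the iron-bearing ring of hemoglobin. Macrophages that take up old red blood cells break it down with heme oxygenase 1 (Hmox1) and release the iron through ferroportin (Slc40a1), and in the red pulp of the spleen their development needs the transcription factor SPI-C. Heme binds and inactivates BACH1, a repressor that sits on Hmox1, Spic and genes of antioxidant defence, many of which are also targets of the activator NRF2. Free heme can in addition act as an inflammatory stimulus through Toll-like receptor 4 and NF-kB. By its title the series asks how heme acts on monocytes that become macrophages able to recycle iron.

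With a single array a side there is no replicate check at 72 h, so differences are described by their size and none was tested. Whether each array had its own mouse or culture is not stated. Array medians ran from 5.34 to 5.45, and the 2 arrays at 72 h correlated at 0.983 across probe sets. One measure of error within the arrays was at hand: among 689 genes with several probe sets, differences of probe sets of the same gene had a pooled SD of 0.18, against an SD of 0.36 over all kept genes. That spread holds no variation between cultures. A level under the filter of 5.37 was not shown to be above background, and a difference from such a level is also given as a bound, with the low side set to the filter. At the edge of the filter, Magi1 just inside differed by -0.15 and Trpm2 just outside by 0.05. The adherent cells are a bulk sample, in which fewer cells of a type and less RNA per cell cannot be told apart.

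Most genes differed little between the 2 arrays at 72 h. The median difference was 0.03, and 65.4% of genes lay within 0.25 of 0. At least 6209 of the 11516 kept genes lay above 0, the base for such counts within lists. At 2-fold or more, which is 1 on the log2 scale, 144 genes (1.25% of those kept) were higher with heme and 70 (0.608%) were lower. At 4-fold, 29 were higher and 5 lower. Both levels reached the filter for 116 of the 144 and for 54 of the 70, and counted as bounds 125 and 57 remained at 2-fold. The vehicle arrays of the other times show how far a level moves in culture without heme: the 72 h heme array lay above all 3 vehicle arrays for 124 of the 144 genes, and below all 3 for 58 of the 70. It was 2-fold beyond all 3 for 85 and 29. Being beyond the 72 h vehicle array is fixed by how these genes were picked. The comparisons with the vehicle arrays of the other times use the same 72 h heme level by which the genes were picked, which favours such counts. No share over all kept genes is given beside them, so the counts are a description and not a separate check.

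**Figure D1:**
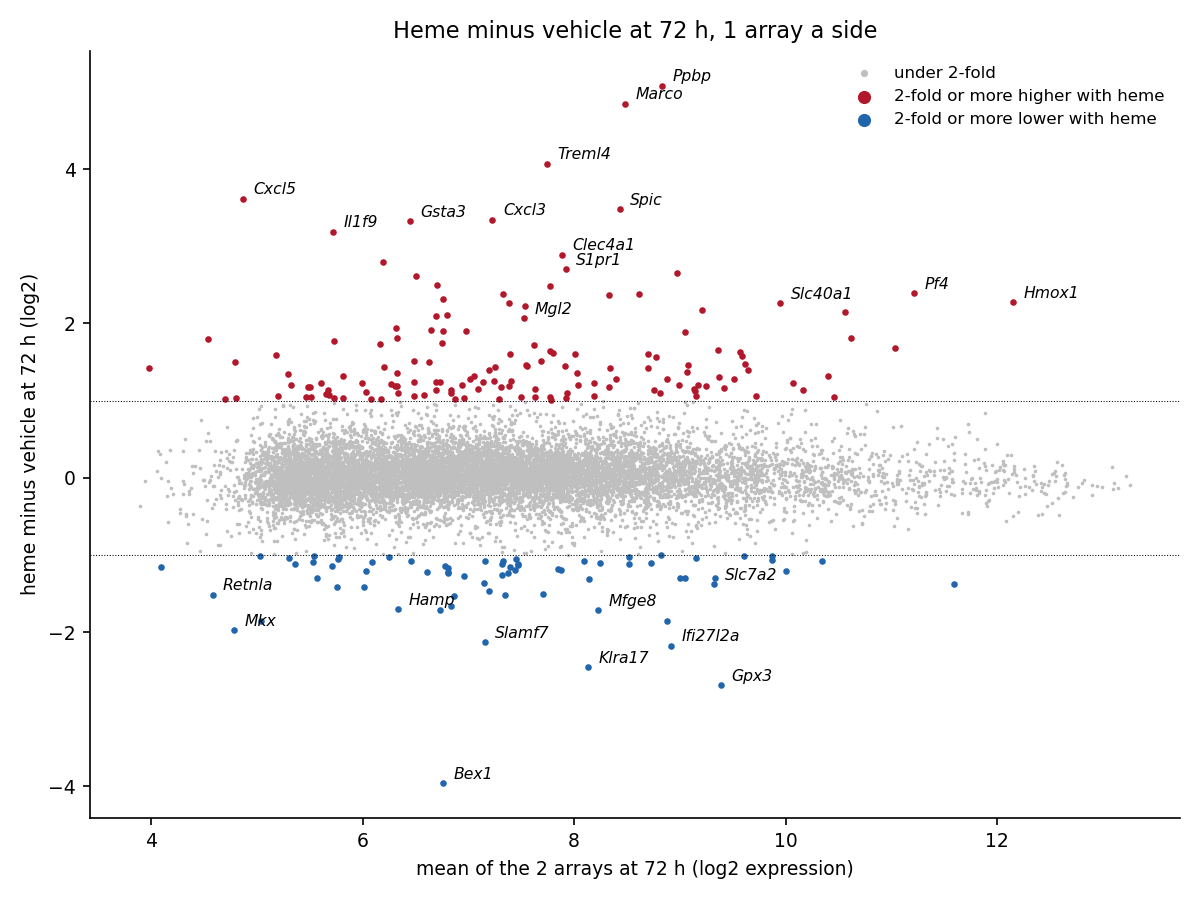
Difference between heme and vehicle at 72 h (log2, y axis) against the mean level of the 2 arrays (log2, x axis), 1 point for each of the 11516 kept genes. Red and blue points mark the 144 genes at least 2-fold higher and the 70 at least 2-fold lower with heme, dotted lines mark 2-fold, and Ppbp at 5.08 and Bex1 at -3.96 are the extremes.

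The highest differences belonged to secreted chemokines, surface receptors and SPI-C itself. Ppbp, which encodes a neutrophil-attracting chemokine best known from platelets, stood first. Its levels with heme were 7.87, 9.17 and 11.37 at 6, 24 and 72 h, and with vehicle 6.75, 4.97 and 6.29. The 72 h heme level was the highest of the 6, and the difference of 5.08 amounts to 33.9-fold. Marco, a scavenger receptor that binds bacteria and particles, came next. It was at 8.88, 9.12 and 10.90 with heme and at 7.96, 6.97 and 6.06 with vehicle, so that the arms parted in both directions to a difference of 4.85 (28.8-fold). Treml4, a receptor of splenic red pulp macrophages, was at 7.54, 9.43 and 9.78 with heme against 5.36, 5.13 and 5.71, a difference at 72 h of 4.07 (16.8-fold).

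Of the kept genes of the red pulp macrophage programme 9 lay above 0 and 2 below, some of them by little. Of 15 listed genes 11 were kept, 4 were 2-fold higher (Treml4, Spic, Hmox1 and Slc40a1), and 1 was 2-fold lower (Siglec1). The median of red pulp macrophage at 72 h was 0.40, and over the alternatives it ran from 0.15 without the level filter to 0.71 against the 24 h vehicle array. Spic was at 9.53, 10.49 and 10.17 with heme and at 5.76, 6.09 and 6.69 with vehicle. Every heme level lay above every vehicle level, and the 72 h difference of 3.48 (11.2-fold) was smaller than that of 4.40 at 24 h. Because all cultures carry an altered Spic gene, and the position of its probe set relative to that change is unknown here, the Spic value describes that probe set only. Siglec1, a sialic acid receptor of tissue macrophages, was at 7.96 with heme and 9.08 with vehicle at 72 h, a difference of -1.12. The adhesion molecule Vcam1, a further marker of these cells, did not reach the filter on any array, with 5.35 and 5.28 at 72 h. Cd163, the receptor for hemoglobin bound to haptoglobin, was at 5.62 and 5.22. Adgre1, which encodes F4/80, was at 10.48 and 9.89, a difference of 0.59 after -0.17 and 0.04 at 6 and 24 h.

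The genes of heme breakdown and iron lay on both sides of 0 at 72 h. Of 31 kept of 34 listed, 5 were 2-fold higher (Hmox1, Slc48a1, Slc40a1, Lcn2 and Slc25a37), 2 were 2-fold lower (Hamp and Slco2b1), and the median over the list was 0.03, the same as over all genes. Hmox1 was at 13.30, 13.18 and 13.29 with heme and at 10.54, 10.44 and 11.01 with vehicle, which gave 2.27 (4.83-fold) at 72 h. Its heme level thus stood still across the 3 times near the top of the scale. Slc40a1 was at 9.61, 10.35 and 11.08 with heme and at 6.79, 8.51 and 8.82 with vehicle, so both arms were at their highest at 72 h, 2.26 apart. Slc48a1, a transporter of heme out of the phagolysosome, differed by 1.38, 2.06 and 1.23. Slc25a37, the mitochondrial iron importer, differed by 0.76, 1.06 and 1.32. The other enzymes of breakdown were under 2-fold, with Hmox2 at -0.12 and the biliverdin reductases Blvra at -0.20 and Blvrb at 0.79. Among heme and iron transporters Flvcr2 was at -0.99, Slc39a8 at -0.59, Steap3, an iron reductase, at -0.41 and Slc11a2 at 0.26. The ferritin chains Fth1 and Ftl1 were at 0.03 and -0.07, and the transferrin receptor Tfrc was at -0.05 after -1.51 at 6 h. None of the 12 kept genes of heme synthesis was 2-fold in either direction, and their median was -0.07. For a list of that size 0 is near the shares over all kept genes, 1.25% higher and 0.608% lower.

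Hamp, which encodes hepcidin, the hormone that removes ferroportin from the cell surface, was among the lowest genes. Its levels were 4.46, 4.87 and 5.48 with heme and 4.98, 5.30 and 7.19 with vehicle. Only the 72 h arrays reached the filter. The difference of -1.70 at 72 h came with a vehicle level 1.89 above that at 24 h, and against the 24 h vehicle array the heme array was 0.19 higher. Slco2b1, an organic anion transporter, was low at all 3 times, with -1.65, -1.47 and -1.47.

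The regulators of the antioxidant response had 1 gene at 2-fold. Among 11 kept genes of 12 on that list, Sqstm1, an autophagy receptor that binds KEAP1, was the only one at 2-fold (1.14). Nfe2l2, which encodes NRF2, differed by -0.41 at 72 h after 0.46 and 0.32. Bach1 was at 8.01 and 7.95, and its difference of 0.06 turned to -0.0019 under cyclic loess normalization. Mafg, a small MAF partner of both, differed by 0.56, 0.66 and 0.58.

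Of 13 kept glutathione genes of 17 listed, 5 were 2-fold higher and 1 was lower. The median of glutathione synthesis at 72 h was 0.50, and it was 0.28 without the level filter and 0.87 with the filter at the 75th percentile. Gclm, a subunit of the enzyme that starts glutathione synthesis, was at 10.34, 10.59 and 10.29 with heme and at 8.11, 7.62 and 8.12 with vehicle, a difference of 2.17 at 72 h. Its partner subunit Gclc differed by 1.25, the cystine importer Slc7a11 by 1.63, and glutathione reductase Gsr by 1.20. All of these were already apart at 6 h, whereas Ggt5, which cleaves glutathione conjugates outside the cell, differed by 0.15, 0.93 and 1.81. Against this group ran Gpx3, the secreted glutathione peroxidase. It was at 7.87, 8.27 and 8.04 with heme and at 8.74, 9.71 and 10.73 with vehicle, so the vehicle arm parted from a nearly level heme arm to a difference of -2.69 (6.46-fold lower).

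Of 16 kept genes that supply NADPH or reduce thioredoxin and peroxides, 4 were 2-fold higher and 0 were lower. Above 0 lay 14 of the 16, against at least 6209 of all 11516 kept genes. Me1, the cytosolic malic enzyme that makes NADPH, was at 6.62, 7.33 and 7.59 with heme against 4.97, 4.96 and 4.80. All 3 vehicle levels were under the filter, which makes the 72 h difference of 2.79 at least 2.21 as a bound (at least 4.64-fold). A further Me1 probe set gave 2.90. Sod2, the mitochondrial superoxide dismutase, differed by 1.45, Txnrd1, thioredoxin reductase, by 1.09, and catalase (Cat) by 1.05. Srxn1, which repairs oxidised peroxiredoxins, had differed by 1.60 at 24 h and differed by 0.68 at 72 h.

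Of 20 kept detoxifying enzymes and exporters, 4 were 2-fold higher, 0 were lower, and the median was 0.39. Gsta3, a glutathione transferase, was at 4.97, 7.14 and 8.11 with heme and at 5.02, 4.54 and 4.78 with vehicle. No vehicle level reached the filter, so its 3.33 at 72 h is at least 2.74 (at least 6.66-fold). The arms of Gsta3 were level at 6 h and farthest apart at 72 h. Abcc1, an exporter of glutathione conjugates, differed by 1.72, 2.71 and 2.37. Its relative Abcc3 had differences of -0.44 and -0.05 at 6 and 24 h and of 1.64 at 72 h, where the heme level was 8.59 against 6.71 at 24 h. Nqo1, a quinone reductase often read as an NRF2 target, differed by 0.94.

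Promoters of these genes are shown because BACH1 and NRF2 act through the antioxidant response element. The windows searched run from 250 bases before to 50 after each RefSeq gene start on GRCm38.p6, the motif was TGACNNNGC on either strand, and the match is in capitals. A match was present in 4 of 10 windowed genes of the heme and antioxidant lists that were 2-fold higher, Gclm, Gsta3, Me1 and Txnrd1. The share was 28.6% of all 77 kept genes on those lists that have a window, 16.7% of 9291 kept genes with a window, and 12.8% of the 109 windowed genes 2-fold higher at 72 h. It was present in 14.2% of 11720 single windows of the same length. The Gclm stretch is chr3:122245383-122245471 on the plus strand with its match beginning at position -134 from the gene start, and the Gsta3 stretch is chr1:21240424-21240512, plus, at -121. The Me1 stretch is chr9:86695912-86695960, minus, at -6, and the Txnrd1 stretch is chr10:82859074-82859162, plus, at -92. In Gclm and Txnrd1 the capitals show the motif on the opposite strand.
Gclm: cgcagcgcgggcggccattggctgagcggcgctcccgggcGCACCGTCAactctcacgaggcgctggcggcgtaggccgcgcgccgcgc
Gsta3: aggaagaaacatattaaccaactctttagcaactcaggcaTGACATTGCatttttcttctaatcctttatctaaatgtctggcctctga
Me1: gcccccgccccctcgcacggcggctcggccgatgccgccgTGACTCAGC
Txnrd1: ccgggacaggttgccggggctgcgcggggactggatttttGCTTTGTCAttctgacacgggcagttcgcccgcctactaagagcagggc
A match of these letters is a description of the sequence, not a measured binding site.

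The list of neutrophil-attracting CXC chemokines, which also holds Pf4 and the receptor Cxcr2, had the highest median of the lists, 2.48. Of 7 kept genes of 8 listed, 6 were 2-fold higher: Ppbp, Cxcl5, Cxcl3, Cxcl2, Pf4 and Cxcl1. Cxcl3 was at 10.21, 9.73 and 8.90 with heme and at 6.37, 5.45 and 5.56 with vehicle, a difference of 3.35 at 72 h. Cxcl2 was at 10.26, 9.23 and 9.01 against 7.01, 5.99 and 6.53, a difference of 2.48. In both, the heme level was lower at 72 h than at 6 h and still above every vehicle array. Pf4 ran the other way, from 10.42 to 12.41 with heme, against 9.44 to 10.01 with vehicle. Cxcl5 was at 3.46, 4.31 and 6.67 with heme and at 3.41, 3.16 and 3.06 with vehicle. Only its 72 h heme level reached the filter, so the difference of 3.62 is at least 1.30 (at least 2.46-fold). The receptor Cxcr2 was under the filter on both arrays, at 4.53 and 5.13.

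These 6 chemokine genes stand next to one another on chromosome 5, in the order Cxcl5, Ppbp, Pf4, Cxcl3, Cxcl1, Cxcl2 among 11024 kept protein-coding genes placed by the GRCm38.p6 gene table. It was the longest run of neighbouring genes 2-fold higher at 72 h. Of 142 such genes that could be placed, 26 (18.3%) had a neighbour that was also 2-fold higher, in 10 runs. Over all kept genes 1.25% were 2-fold higher. The share of all placed genes with such a neighbour was not computed, so the 18.3% is a description. The other runs include Clec4d with Clec4e, Mgl2 with Clec10a, C1ra with C1s1, Ly6i with Ly6a2, and Treml4 with Trem1. Txnrd1 overlaps Eid3 and Lpcat2 overlaps Capns2, and signal of overlapping genes may not be separable here. Cxcl1, Cxcl2 and Cxcl3, Mgl2 and Clec10a, and the Ly6 genes are near copies of one another, so probes may share signal between them.

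The promoters of these chemokines are shown beside a second motif, the NF-kB-like core GGAANNTCC, searched on both strands in the same windows. It was present in 6 of 15 windowed genes of the inflammatory lists that were 2-fold higher (Acod1, Cxcl1, Cxcl2, Cxcl3, Il6 and Nfkbie). The share was 27.4% of all 62 kept genes of those lists with a window, 11.9% of the 109 genes higher at 72 h, 0 of 51 lower, and 5.42% of all kept genes with a window. Of 11720 single windows it was present in 4.62%. Cxcl1, Cxcl2 and Cxcl3 carry the same 9 letters, GGAATTTCC, at -70, -96 and -72 from the gene start. The stretches are chr5:90891135-90891223, chr5:90903763-90903851 and chr5:90785989-90786077, all plus strand, and chr17:45555584-45555672, plus, at -76 for Nfkbie.
Cxcl1: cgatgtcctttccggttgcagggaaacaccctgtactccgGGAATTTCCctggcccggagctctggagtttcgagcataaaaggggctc
Cxcl2: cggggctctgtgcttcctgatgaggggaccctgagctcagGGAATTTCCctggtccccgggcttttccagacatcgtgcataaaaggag
Cxcl3: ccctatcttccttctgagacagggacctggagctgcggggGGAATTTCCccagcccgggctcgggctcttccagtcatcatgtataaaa
Nfkbie: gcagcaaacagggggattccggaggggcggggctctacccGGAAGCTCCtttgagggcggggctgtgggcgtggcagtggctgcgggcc
The motif and the lists were set side by side after the differences were known, and the shares support no statement on binding.

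Ppbp and Pf4 are also the textbook products of megakaryocytes and platelets. The summed linear level of the 7 markers of that cell type on the array was 8467 with heme and 1457 with vehicle at 72 h, with 4 markers at the filter on each array. The other 3 kept markers were close on the 2 arrays: Itga2b at 5.56 and 5.08, Gp5 at 5.29 and 5.59, and Treml1 at 7.83 and 7.66. Gp9 and Itgb3 were not kept. The part of such cells in the chemokine result was not tested.

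Inflammatory cytokines differed in their course over the 3 times. Of 13 kept genes around interleukin 1, 2 were 2-fold higher. Il1b was at 9.67, 10.33 and 10.15 with heme and at 6.33, 7.56 and 8.87 with vehicle, so its difference of 1.28 at 72 h, down from 3.33 and 2.77, went with a vehicle level that was higher at each later time. Il1f9, which encodes interleukin 36 gamma, was at 8.23, 8.86 and 7.31 with heme and at 6.93, 6.30 and 4.12 with vehicle. Its 3.19 is at least 1.94 (at least 3.83-fold) because the last vehicle level was under the filter. Il1a, at 2.09 at 6 h, differed by -0.48 at 72 h. Tnf differed by 2.69, 1.09 and 0.63.

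Of 17 kept secreted inflammatory factors of 28 listed, 6 were 2-fold higher (Lcn2, Saa3, Il6, Acod1, Lif and Tnfsf9) and 0 were lower. Acod1 is listed there although its product, the enzyme that makes itaconate, is not secreted. It was at 10.58, 9.75 and 7.01 with heme and at 6.27, 6.00 and 5.65 with vehicle, which took the difference from 4.31 to 1.36. Saa3, an acute phase protein, was at 9.44, 11.81 and 11.63 against 6.66, 8.30 and 9.49, a difference of 2.14. Lcn2, which binds bacterial iron carriers, was at 9.20, 9.32 and 7.95 with heme and at 9.20, 6.70 and 5.46 with vehicle. For Lcn2 the 72 h heme level lay inside the vehicle range, 1.25 below the highest vehicle array. Both Il6 levels at 72 h, 4.69 and 3.26, were under the filter, so no size is given for it. Lif and Tnfsf9 had vehicle levels under the filter, and as bounds their differences were at least 0.59 and at least 0.70.

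NF-kB subunits and feedback inhibitors had a lower median at 72 h than before: over 19 kept genes it was 1.01, 0.92 and 0.55 at 6, 24 and 72 h. At 72 h 17 of them lay above 0, against at least 6209 of all 11516 kept genes. Nfkbie and Tnip3 were the 2 that were 2-fold higher, at 1.10 and 1.04. Nfkbia, the first inhibitor made on NF-kB activation, differed by 1.63, 1.35 and 0.77. Of 15 kept Toll-like receptor genes 0 were 2-fold in either direction, which is near the shares over all kept genes. The highest were Irak3 at 0.97 and Cd14 at 0.95. Of 19 kept CC and other chemokine genes, Ccl5 (1.37) and the fractalkine receptor Cx3cr1 (1.74) were 2-fold higher, and Ccl4 (-1.12) was 2-fold lower. Ccl5 had differed by 3.23 at 24 h. Cx3cr1 was at 5.71, 6.05 and 7.62 with heme and at 5.60, 5.82 and 5.88 with vehicle, so that it stood apart at 72 h and not before.

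**Figure D2:**
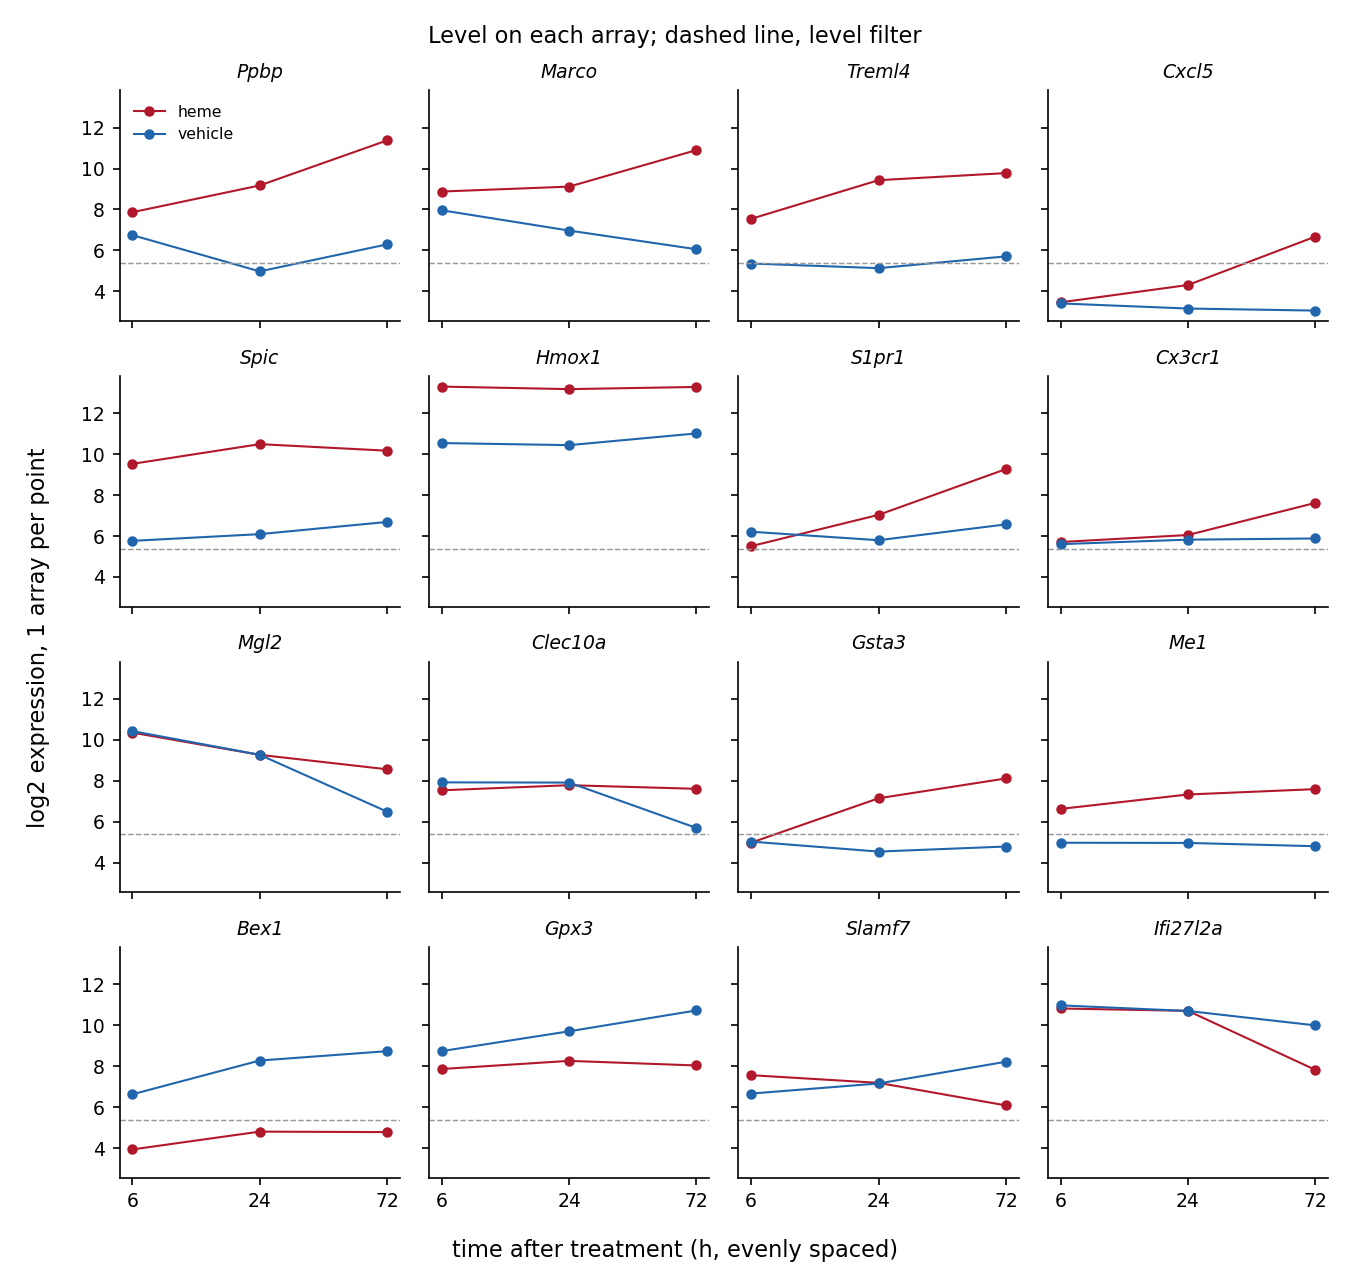
Level of 16 named genes on each of the 6 arrays (log2, y axis) at 6, 24 and 72 h (x axis, evenly spaced), with heme in red and vehicle in blue and 1 array per point. The dashed line is the level filter of 5.37; Cxcl5 crosses it on the 72 h heme array alone, and Mgl2 goes from 9.27 to 6.49 with vehicle between 24 and 72 h.

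C-type lectin receptors, which sense microbial sugars and dead cells, held several late differences. Of 16 kept of 21 listed, 5 were 2-fold higher, 1 was lower, and the median of C-type lectin receptors at 72 h was 0.52 against 0.05 at 24 h. Without the level filter the 72 h median was 0.15. Clec4a1, an inhibitory receptor, was at 6.55, 7.68 and 9.33 with heme and at 5.89, 5.86 and 6.44 with vehicle, a difference of 2.89 (7.42-fold). Clec4d and Clec4e, partner receptors for mycobacterial lipids, differed by 1.81 and 1.42 at 72 h after 2.42 and 3.10 at 24 h. Mgl2 and Clec10a, galactose-type lectins of macrophages and dendritic cells, behaved otherwise. Mgl2 was at 10.35, 9.27 and 8.56 with heme and at 10.43, 9.27 and 6.49 with vehicle. The arms were level until 24 h, and the 2.07 at 72 h came with the low last vehicle array; against the 24 h vehicle array the heme level was 0.71 lower. Clec10a was at 7.53, 7.78 and 7.60 with heme and at 7.92, 7.91 and 5.69 with vehicle, a difference of 1.92. Klra17, an inhibitory receptor of the Ly49 family found on myeloid cells, was at 6.62, 6.90 and 6.90 with heme and at 7.08, 9.25 and 9.36 with vehicle, a difference of -2.45.

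Of 14 kept scavenger receptors, Marco and Stab1, a receptor for modified lipoproteins and dying cells, were 2-fold higher and 0 were lower. Stab1 was at 5.79, 6.72 and 8.19 with heme and at 5.64, 6.08 and 6.59 with vehicle, 1.60 apart at 72 h. The others lay between -0.45 (Olr1) and 0.40 (Cd163). Fc and SLAM receptors were the list with the lowest median, -0.37, with 12 of 16 kept genes below 0. Against the 24 h vehicle array the median of Fc and SLAM receptors at 72 h was -0.07. Slamf7, a self-binding receptor of the SLAM family, was at 7.57, 7.19 and 6.09 with heme and at 6.67, 7.16 and 8.22 with vehicle. The arms crossed, from 0.90 at 6 h to -2.13 at 72 h. Fcrls differed by -1.09 and was at least 0.71 lower as a bound. The complement list included none at 2-fold among 10 kept, which is near the shares over all kept genes. Genes that it leaves out, C1ra and C1s1 among them, were 2-fold higher. The C1q chains, at -0.69 to -0.98 at 24 h, lay between -0.10 and 0.10.

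Bridging proteins for the uptake of dying cells split in direction. Of 17 kept genes, Thbs1 (1.67) and Stab1 were 2-fold higher, and Mfge8 (-1.71) and Pros1 (-1.01) were 2-fold lower. Mfge8, which ties exposed phosphatidylserine to integrins, was at 7.92, 7.87 and 7.37 with heme and at 8.40, 8.25 and 9.08 with vehicle. Thrombospondin 1 (Thbs1), which binds Cd36, was at 9.88, 11.32 and 11.87 with heme and near 10 with vehicle, at 10.03, 10.26 and 10.20. MHC class II genes held 0 of 13 at 2-fold, which is near the shares over all kept genes. Cd86 was highest at 0.90, and the class II chain H2-Aa was at 0.17.

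Arginine metabolism was represented at both ends of the range, within a list of itaconate, arginine and eicosanoid genes of which 4 of 22 kept were 2-fold higher and 2 lower. Arg1, arginase 1, was at 5.42, 6.45 and 8.52 with heme and at 6.19, 6.08 and 6.13 with vehicle, a difference of 2.38 (5.21-fold). Vehicle levels were nearly constant, and at 6 h heme was the lower. Arg2, the mitochondrial arginase, differed by 1.94, with its last vehicle level of 5.34 just under the filter. Slc7a2, an importer of arginine, was at 8.63 and 10.01 at 72 h, a difference of -1.38. Retnla, a marker of alternative activation, was under the filter on both 72 h arrays, at 3.82 and 5.34. Alox5, which starts leukotriene synthesis, differed by -1.03, 0.71 and 1.39 at the 3 times, and Ltc4s, a later enzyme of that pathway, by -0.95 at 72 h.

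The proteasome, which degrades tagged proteins, had mostly small differences above 0. All 41 listed genes were kept, and 36 lay above 0 at 72 h, against at least 6209 of all 11516 kept genes. Their median was -0.12, 0.23 and 0.47 at 6, 24 and 72 h. For 31 of the 41 the 72 h difference was above that at 24 h. Psma5, a core subunit, was at 10.14, 10.79 and 11.05 with heme and at 10.13, 10.16 and 9.74 with vehicle, a difference of 1.31, and its second probe set gave 1.15. Against the mean of the 3 vehicle arrays the median of proteasome at 72 h was 0.29. The lid and base subunits Psmd7 and Psmd1 followed at 1.14 and 1.06. The subunits particular to the immunoproteasome, Psmb8, Psmb9 and Psmb10, were at 0.21, 0.23 and -0.24, and the PA28 activator chains Psme1 and Psme2 were both at -0.10. Over the same arrays oxidative phosphorylation genes had a median of -0.03 with 0 of 38 at 2-fold. Subunits of a complex measured on the same 2 arrays share every error of those arrays, so the count of 36 is not 36 separate observations.

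Lipid genes leaned lower. Of 24 kept cholesterol and fatty acid synthesis genes 19 lay below 0, with a median of -0.29. Of all 11516 kept genes fewer than 5308 lay below 0. Against the 24 h vehicle array the median of cholesterol and fatty acid synthesis at 72 h was -1.19, a value that also holds change in culture without heme. Idi1, an isomerase of the cholesterol pathway, was 2-fold lower at -1.08, with -1.07 from its second probe set. Idi1 had been at 0.43 at 6 h and -0.57 at 24 h. Its vehicle level moved by -1.08 from 24 to 72 h. Those of Cyp51, Insig1 and Dhcr7, on the same list, moved by -1.35, -0.41 and -0.0033. Of 26 kept genes of lipid handling by PPARG and LXR 18 lay below 0. Scd1, a fatty acid desaturase, was at 9.68, 9.34 and 7.25 with heme and at 10.14, 9.65 and 8.44 with vehicle, a difference of -1.19. Pparg itself differed by -0.81, -0.61 and -0.82, and the cholesterol exporter Abcg1 by -0.99 at 72 h. Lysosomal genes lay below 0 in 26 of 32, by small amounts, with a median of -0.13, and the collagen-degrading Ctsk was 2-fold lower at -1.03.

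Glycolysis and hypoxia genes lay above 0 in 21 of 29, with a median of 0.35, against at least 6209 above 0 of all 11516 kept genes. Against the 24 h vehicle array the median of glycolysis and hypoxia at 72 h was 0.06. Egln3, an oxygen sensor, differed by 0.08, 0.78 and 1.51, and Hif1a by 0.15, 0.43 and 0.75. Epas1, which encodes HIF-2 alpha, was on the other side: 5.97, 6.31 and 6.00 with heme and 7.11, 7.21 and 7.67 with vehicle, a difference of -1.66. Among matrix proteases Mmp14 (1.16), Adam8 (1.20), Mmp2 (1.02) and Mmp25 were 2-fold higher and the collagenase Mmp13 (-1.19) lower. Mmp25 was under the filter on both 72 h arrays. Mmp13 differed by -0.59 at 24 h already. From 24 to 72 h it went from 6.18 to 6.84 with heme and from 6.77 to 8.03 with vehicle. Slc39a4, a zinc importer, was at 7.74 and 5.65 at 72 h, 2.09 apart, while metallothioneins Mt1 and Mt2 were at -0.46 and -0.67.

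Several lists whose medians stood away from 0 at 6 or 24 h had medians closer to 0 at 72 h. For interferon-stimulated, DNA replication and mitosis genes most of that shift lay between 6 and 24 h. The list of interferon-stimulated genes had medians of 0.80, -0.03 and -0.18 at 6, 24 and 72 h. At 72 h 18 of 22 lay below 0 and 0 were 2-fold. Ifi27l2a, an interferon-inducible gene that the list leaves out, was at -2.17 at 72 h. Ifit1, an antiviral effector, differed by 1.98 at 6 h, and both its 72 h levels, 3.88 and 4.45, were under the filter. DNA replication genes had medians of -0.73, -0.07 and -0.11 at 6, 24 and 72 h, and mitosis genes of -0.54, -0.12 and -0.06. In each list 0 of 31 were 2-fold at 72 h. Of the 31 DNA replication genes, 22 reached the filter on the 72 h heme array and 23 on the vehicle array. For mitosis the counts were 11 and 13 of 31, so most of its 72 h levels were under the filter. Neutrophil granule and stefin genes had medians of 0.08, 1.40 and 0.07 at 6, 24 and 72 h. S100a8 and S100a9, calcium-binding proteins abundant in neutrophils, went from 12.22 and 12.13 at 6 h to 10.09 and 8.30 at 72 h with heme, and from 11.94 and 12.08 to 9.38 and 7.25 with vehicle. The neutrophil marker Ly6g was under the filter on both 72 h arrays. The 9 neutrophil markers, S100a8 and S100a9 among them, summed to 1636 with heme and 1068 with vehicle on the linear scale. Of the 8 kept markers 4 lay above 0 and 4 below, with a median of -0.01. Ngp and Ltf, under the filter on both 72 h arrays, were at -0.26 and -0.45.

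The remaining lists held few 2-fold genes in number, but mostly a larger share than all kept genes. Over all kept genes 1.25% were 2-fold higher and 0.608% lower. In these lists, where any gene was 2-fold higher, the share ran from 3.70% to 11.8%. In several of them 1 gene makes up that whole share. Among 26 kept cytokine and growth factor receptors, Csf3r, the receptor of G-CSF, was at 1.42, Il21r at 1.05 and Il7r at -1.20. Among 21 kept myeloid transcription factors, Spic was the only one 2-fold higher and Bhlhe40 (-1.02) the only one lower. Dendritic cell identity and maturation genes included Ccl5 and Mgl2 among 17 kept, and heat shock genes and ER chaperones included Dnajb4 (1.36) among 27. Genes of the ATF4 stress response included Slc7a11 and Phgdh, in opposite directions, among 26, and autophagy genes Sqstm1 among 20. AP-1 and EGR genes (18 kept) and cell cycle inhibitors and p53 targets (21 kept) had 0 at 2-fold, which for lists of that size is near the shares over all kept genes. The same holds for the 0 counts of oxidative phosphorylation, interferon-stimulated, DNA replication and mitosis genes and of macrophage markers.

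**Figure D3:**
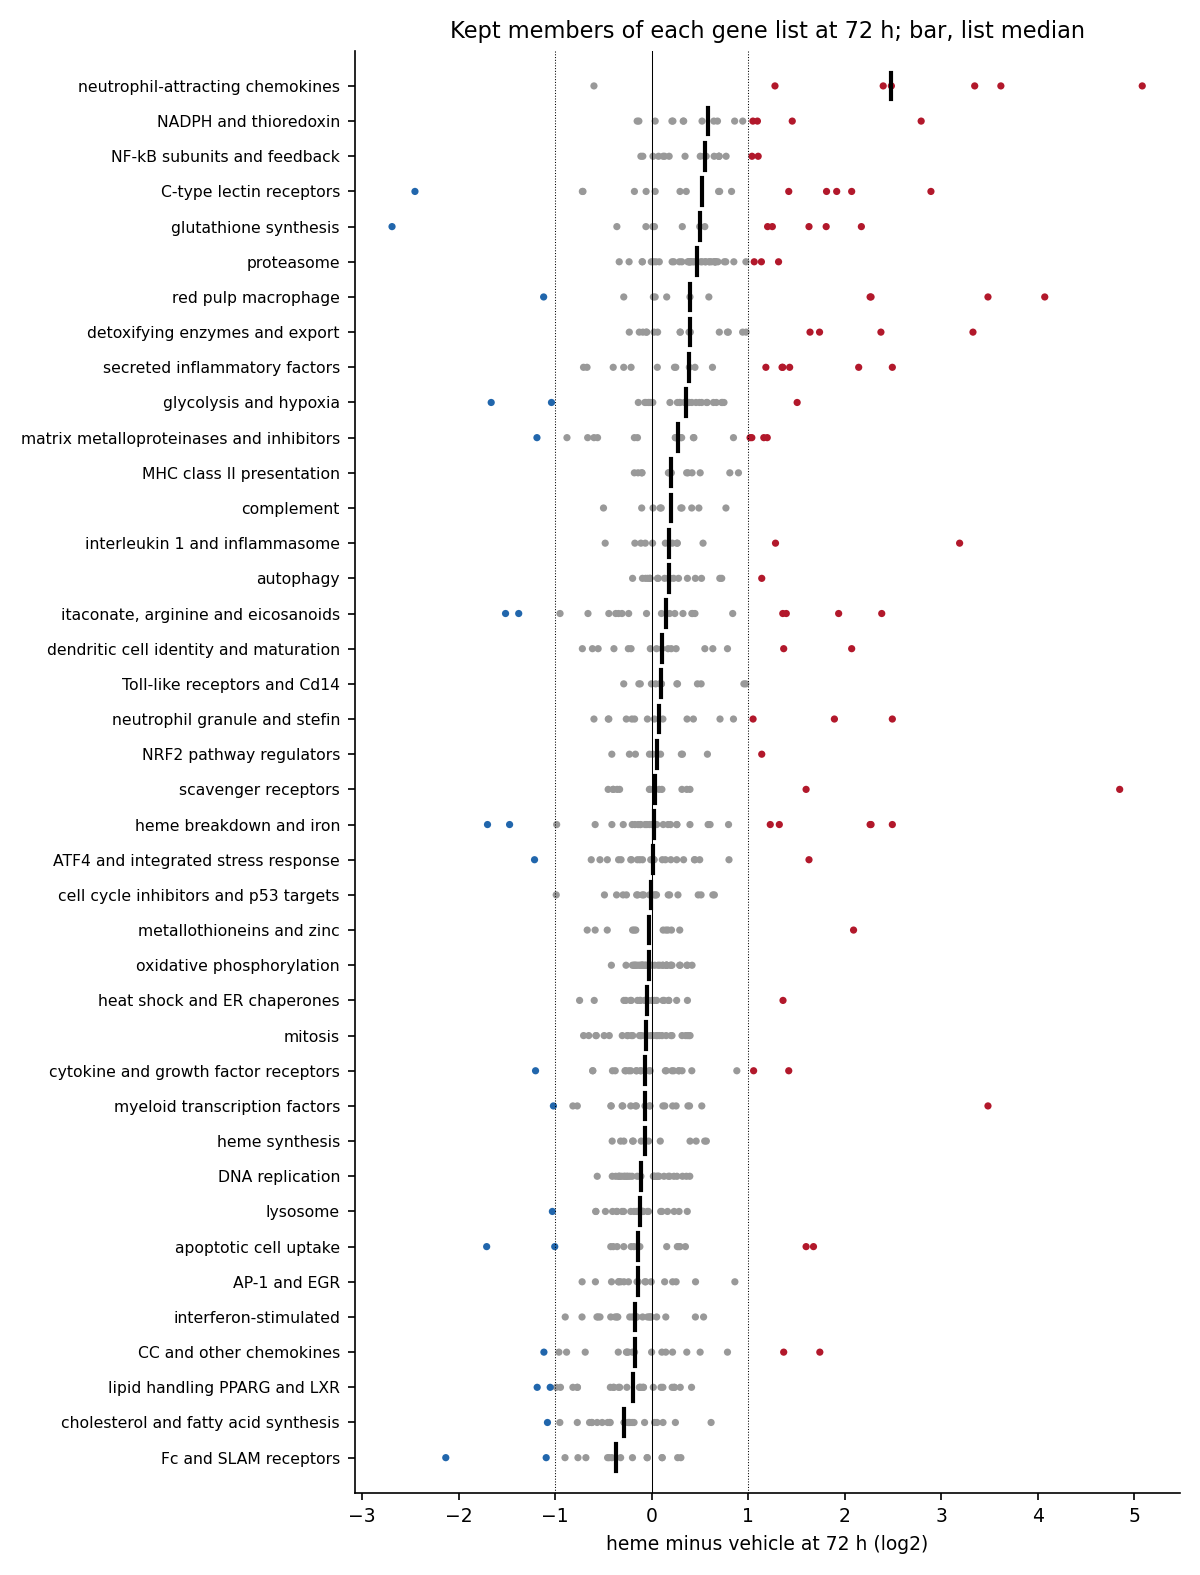
Difference between heme and vehicle at 72 h (log2, x axis) for every kept member of 40 gene lists (y axis, ordered by median), 1 point per gene, red at 2-fold or more higher, blue at 2-fold or more lower, and grey otherwise. Black bars mark list medians, from 2.48 for neutrophil-attracting chemokines to -0.37 for Fc and SLAM receptors, and most lists lie around 0.

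Macrophage markers were present at like levels on both arrays. All 10 were kept and at the filter on both, 0 were 2-fold, and their summed linear level was 18037 with heme and 15541 with vehicle. Dendritic cell markers summed to 10952 and 11311, with Flt3 and Zbtb46 not kept. T, NK and B cell, mast cell, erythroid and endothelial markers on the array were under the filter on both 72 h arrays apart from Tfrc and Cd79b. Eosinophil markers summed to 252 and 390, with Siglecf at -1.13. Of 13 fibroblast and stromal genes listed, 10 were at the filter on each array, and the list summed to 6188 and 6771. Among those, Sparc differed by 1.14, with 8.56 on the vehicle array, while Mkx, Ccn3 and Fstl1 were 2-fold lower, at -1.98, -1.86 and -1.31. The Mkx heme level was under the filter, which leaves at least 0.40. The part of stromal cells in the results was not tested.

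The lowest genes of all were led by Bex1, an adaptor protein encoded on the X chromosome. It was at 3.94, 4.81 and 4.78 with heme and at 6.63, 8.28 and 8.74 with vehicle. All 3 heme levels were under the filter, so the 72 h difference of -3.96 is at least 10.3-fold. Ifi27l2a, an interferon-inducible gene, was at 10.83, 10.71 and 7.83 with heme and at 10.98, 10.71 and 10.00 with vehicle. It was level until 24 h and then parted by the heme array to -2.17. Blnk, an adaptor of receptor signalling, and Rhoc, a small GTPase, came from the vehicle side: Blnk was at 5.84 and 6.10 with heme at 24 and 72 h and at 6.43 and 7.63 with vehicle, and Rhoc at 7.25 and 6.95 against 7.60 and 8.45. Phgdh, the first enzyme of serine synthesis, differed by -1.22 after 0.44 at 24 h. H2-T24, Il7r, Ch25h and Cd22 followed at -1.72, -1.20, -1.26 and -1.24.

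Set beside the earlier times, each with a vehicle array of its own, the higher genes at 72 h overlapped those at 24 h more than those at 6 h. At 24 h 164 genes were 2-fold higher (1.42%) and 56 lower (0.486%), and at 6 h 111 (0.964%) and 77 (0.669%). Of the 144 higher at 72 h, 86 (59.7%) were also 2-fold higher at 24 h, which is 52.4% of the 164. For 6 h the overlap was 40 genes, 27.8% of the 144 and 36.0% of the 111. Of the 70 lower genes 22 (31.4%) were 2-fold lower at 24 h, 39.3% of the 56, and 7 were at 6 h, 9.09% of the 77. Higher genes 2-fold at all 3 times numbered 38, and those under 2-fold at both earlier times 56. Among lower genes the corresponding counts were 5 and 46. Median differences of the 144 genes were 0.46, 1.21 and 1.34 at 6, 24 and 72 h, and of the 70 genes -0.43, -0.72 and -1.20. Because the genes were picked at 72 h, medians at 72 h are larger by construction. A change of the heme effect with time could not be tested, since 1 array per treatment and time leaves no residual degrees of freedom.

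**Figure D4:**
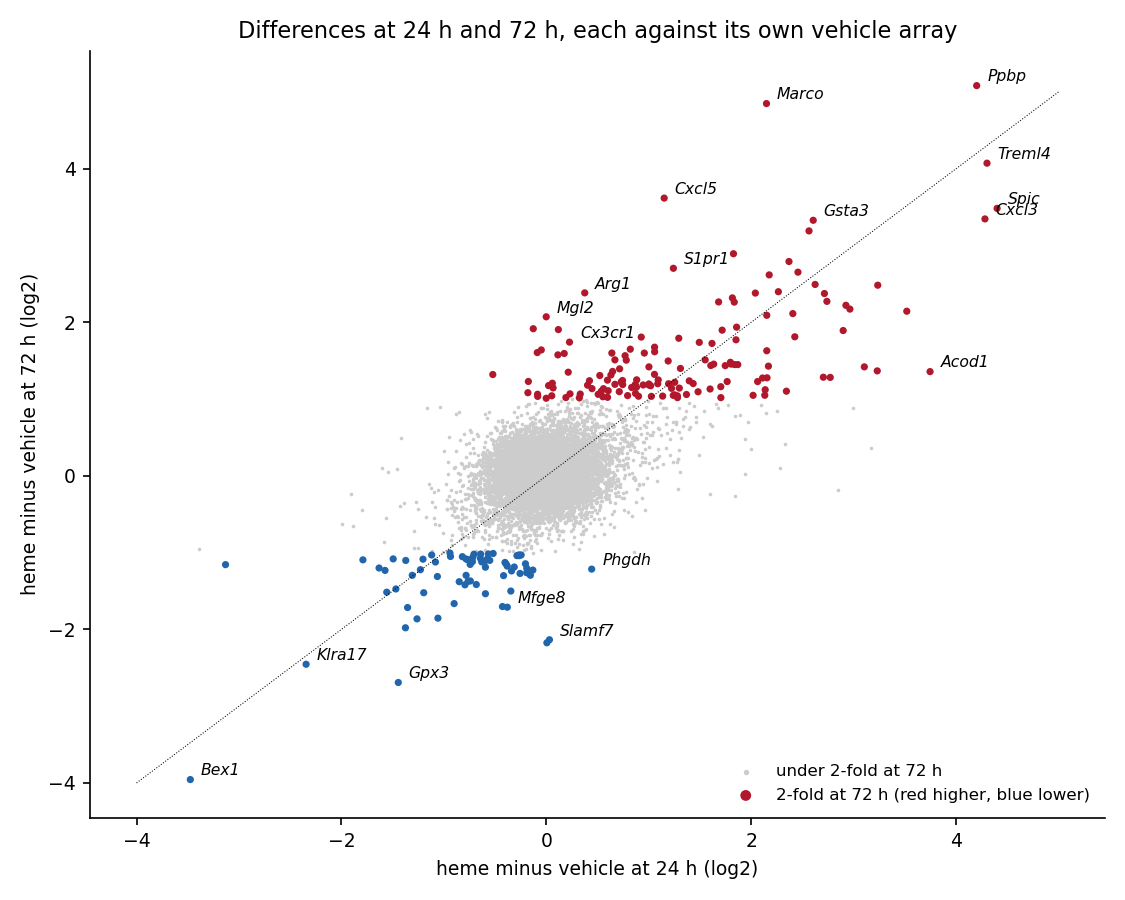
Difference between heme and vehicle at 72 h (log2, y axis) against that at 24 h (log2, x axis) for the 11516 kept genes, each against the vehicle array of its time. Red and blue points are 2-fold at 72 h, the dotted line marks equal differences, and Marco (2.15 and 4.85), Cxcl5, Arg1 and Slamf7 (0.03 and -2.13) lie far from it.

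For the late genes the 2 arms can be read apart. In 23 of the 144 higher genes the difference at 72 h exceeded that at 24 h by at least 1, and in 15 of these the heme array had moved more between the 2 times, in 8 the vehicle array. For the 70 lower genes there were 12, of which 7 were on the heme side and 5 on the vehicle side. Heme-side genes include Cxcl5, Arg1, Abcc3, Cx3cr1, Marco and S1pr1. S1pr1, a receptor that guides cells along sphingosine 1-phosphate, was at 5.50, 7.03 and 9.27 with heme and at 6.21, 5.79 and 6.57 with vehicle, a difference of 2.70. Aif1, an actin-binding protein of macrophages, was at 7.33 and 8.81 with heme at 24 and 72 h and at 7.42 and 7.20 with vehicle. Vehicle-side genes include Mgl2, Clec10a, Jaml and F13a1. F13a1, the coagulation factor XIII chain made by macrophages, was at 7.20 and 7.93 with heme and at 7.08 and 6.02 with vehicle. Plbd1 had 9.91 and 10.37 with heme and 9.80 and 8.80 with vehicle. For genes of the vehicle side the difference rests on the single 72 h vehicle array.

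**Figure D5:**
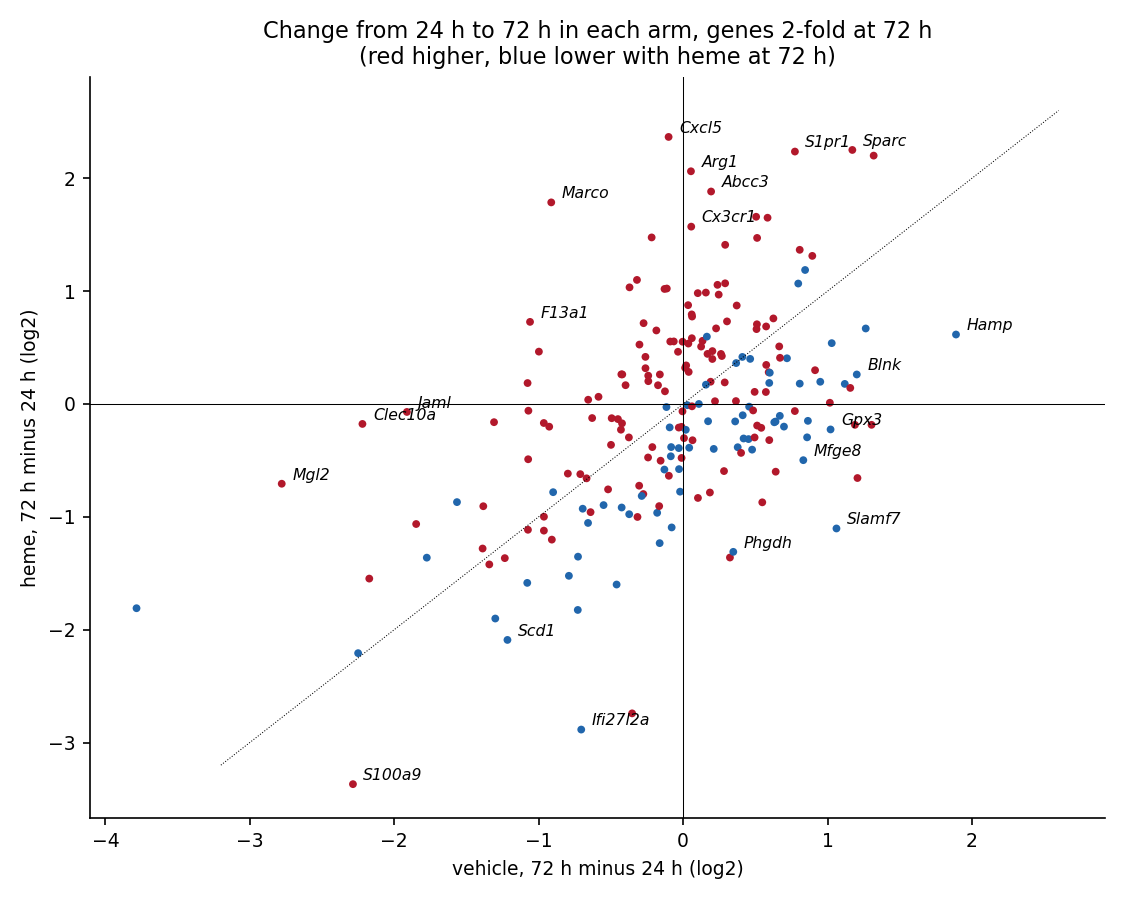
Change in level from 24 to 72 h with heme (log2, y axis) against that with vehicle (log2, x axis), for the 144 genes 2-fold higher (red) and the 70 genes 2-fold lower (blue) at 72 h, 1 array per level. The dotted line marks equal change; Cxcl5, Arg1 and Cx3cr1 lie near 0 on the vehicle axis, and Mgl2 at -2.78 and Hamp at 1.89 lie far out on it.

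Persistent genes outside these lists include Jag1 and Hp. Jag1, a ligand of Notch receptors, was at 6.81, 7.15 and 7.82 with heme and at 5.09, 4.97 and 5.20 with vehicle, all 3 vehicle levels under the filter, so that its 2.62 is at least 2.44 as a bound. Haptoglobin (Hp), which binds free hemoglobin, was at 7.27, 9.90 and 10.30 with heme and at 6.98, 7.44 and 7.64 with vehicle, a difference of 2.65 (6.28-fold). It stood apart from 24 h on. Probe sets disagreed for 1 named gene: Ccdc180, read at -1.27 by the probe set used, had 8 further probe sets between -0.40 and 0.21. Of 11 genes with several probe sets and at least one of them at 2-fold, 10 had the same sign in all and 4 were 2-fold in all.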

How the data were processed

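Total RNA of adherent cells was labelled as biotinylated cRNA and hybridised to 6 single-colour arrays, per the labels' protocols. The authors deposited log2 expression values made by RMA, per the submitters' processing notes; the design text of the series names quantile normalization in ArrayStar, no version is stated, and scanner intensities were not used here. RMA shrinks differences of dim probe sets. Of 35556 probe sets, 21789 named 1 gene, 1621 several and 12146 none in the platform annotation supplied; 21698 matched the GRCm38.p6 gene table by gene ID. With 1 array a side no test was run; the number of arrays limits the precision. Named genes were the 15 highest and 15 lowest at 72 h, the 15 in each direction farthest beyond their 24 h difference, 16 fixed names, and up to 4 members and every 2-fold member of each of 51 lists (40 of pathways, 11 of cell types). Predicted genes were counted and not named. Outside that rule, Hmox2, Blvra, Blvrb, Flvcr2, Steap3, Slc11a2, Fth1, Ftl1, Srxn1, Nqo1, Cxcr2, C1ra, C1s1, Ly6i, Ly6a2, Trem1, Eid3, Lpcat2, Capns2, Treml1, Ltc4s, Psmb8, Psmb9, Psmb10, Psme1, Psme2 and Ly6g were named after their values were seen. The genes and lists were chosen with earlier results of these data known. Alternatives were 3 renormalizations, 3 level filters, averaging a gene's probe sets, adding 16 to linear values, bounds, other vehicle arrays as control, and thresholds of 1.5-fold and 4-fold. The counting step was tested on simulated data. Python 3.11.15, pandas 2.3.3, R 4.3.3 and limma 3.58.1 were used.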

Additional observations from a re-analysis of the deposited data

Results flagged for a closer look

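Alox5, which starts leukotriene synthesis, differed by 1.39 at 72 h and by -1.03 at 6 h, each time 2-fold, in opposite directions. Its levels were 7.04, 7.48 and 7.89 with heme and 8.07, 6.76 and 6.50 with vehicle at 6, 24 and 72 h. With 1 array each, this change of direction was not tested.

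Probe sets that gave no gene value also differed at 72 h. Of 1136 probe sets at the level filter that name several genes, 4 were 2-fold higher (0.352%) and 7 lower (0.616%). Of 6176 that the annotation does not list, 230 were 2-fold higher (3.72%) and 174 lower (2.82%), against 1.25% and 0.608% of kept genes. These probe sets are unnamed here.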

How the results depend on the processing

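Against 144 higher and 70 lower genes, renormalizing gave 133 to 144 and 70 to 82, other filters and bounds 116 to 150 and 54 to 84, the mean of probe sets 144 and 68, and an offset of 16 gave 106 and 48. At 1.5-fold the counts were 485 and 308, at 4-fold 29 and 5. With the 24 h vehicle array as control they were 197 and 145, of which 101 and 44 were shared with the first counts. Against the mean of the 3 vehicle arrays they were 157 and 129, with 102 and 40 shared. These controls lowered the share of higher genes from 67.3% to 57.6% and 54.9%. No paired analysis was possible because there is 1 array per treatment at 72 h.

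Among 112 named genes at 2-fold, 0 changed direction under the processing alternatives, and 25 came under 2-fold in at least one, among them Il6, Retnla, Mkx, Lif, Tnfsf9, Hibch, Mmp25 and Ccdc180. With the 24 h vehicle array, Mgl2 turned to -0.71, Clec10a to -0.30, Jaml to -0.59, S100a9 to -1.24, Hamp to 0.19 and Mmp13 to 0.0742. With the mean of the vehicle arrays, Mgl2 turned to -0.17, Jaml to -0.14 and S100a9 to -1.32. The median of CC and other chemokines at 72 h turned to 0.0936 with the 24 h vehicle array. Other list medians that turned were apoptotic cell uptake at 0.15 and 0.17, MHC class II at -0.0291 and -0.046 and mast cell markers at -0.0195 with these controls, mast cell markers at -0.0525 without a filter, and DNA replication at 0.0348 and 0.0458 and dendritic cell markers at 0.0351 with the 2 stricter filters. The cause was not tested. In all, 16 of 50 list medians took the other sign in some setting.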

Other observations

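Genes outside the lists, chosen after their values were seen, add to several groups at 72 h. Of the glutathione transferases, Mgst2 was at 9.80 with heme and 7.43 with vehicle and Gstm2 at 8.63 and 7.19, while the listed Gstm1, Gstm5, Gstp1, Gsto1, Mgst1 and Mgst3 lay between -0.23 and 0.29; Ptgr1, a reductase of prostaglandins and leukotrienes, was at 10.34 and 8.94. Psmd5, an assembly factor of the proteasome, differed by 1.15. Rbpj, the transcription factor of Notch signalling, was at 9.37 and 8.26 beside the ligand Jag1. C1ra, a protease of the complement C1 complex, was at 7.98 and 6.79, and the C1 inhibitor Serping1 at 6.09 and 4.92, the vehicle level being under the filter. Cd1d1, which presents lipids to T cells, differed by 2.26, and its near copy Cd1d2 by 1.24, with signal that their probes may share. Siglece, an inhibitory sialic acid receptor, differed by 1.90. Mefv, which encodes pyrin, was at 7.92 and 5.60. On the lower side, Dnmt3a, a DNA methyltransferase, was at 8.40 with heme and 9.70 with vehicle, and Cd24a at 9.34 and 10.41.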
